A study of Mus musculus and Homo sapiens with 15 samples.

Results

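Thymus in which T-cell lymphoma was regressing under arsenic trioxide was compared with lymphoma from mice given water, across all genes of one count table. Both groups were mice homozygous for a p53 mutation at residue 282, R282W (W/W), sampled at day 150, and every W/W library came from such a mouse, so no p53 wild-type tissue enters the comparison. The members are the 3 libraries labelled regressing and the 3 labelled as water controls, chosen by the column names of the table: 6 of the 15 libraries of the series. A further 3 libraries, labelled as not regressing under arsenic trioxide and called progressing here, were in the same table and shared the statistical fit. Arsenic trioxide (ATO) is used against acute promyelocytic leukaemia, and it is studied as a compound that can restore structure to some mutant p53 proteins. The labels name neither the cause of regression in these mice nor how much lymphoma was left in a regressing thymus.

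The thymus makes T cells from progenitors that pass through a sequence of stages. Most cells of a healthy thymus are double-positive thymocytes of the cortex, which carry both CD4 and CD8, express the RAG recombinase that assembles antigen receptor genes, and each build a receptor of their own. Cortical epithelial cells present peptides to them, the few cells that pass selection move to the medulla, and B cells, myeloid cells, fat and the parathyroid glands lie in or beside the organ. A lymphoma, in contrast, descends from 1 cell and usually keeps the receptor rearrangement of that cell.

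The 9 W/W libraries held between 12800367 and 17550594 counts, and mitochondrially encoded genes took 2.08% to 8.83% of them. Libraries of 1 group differed from each other by more than sampling noise: a chi-square statistic per degree of freedom was 11.99 between regressing replicates 1 and 2 and between 52.8 and 179 for the 8 other pairs within a group. The labels do not say that replicates came from separate mice, so p-values measure the spread between these samples. Xist was at or below 5.15 CPM in all 9 libraries, while the Y-linked Ddx3y ran from 12.3 to 401 CPM. In this report, 3 values of a group stand in the order of replicates 1, 2 and 3, and levels are CPM, counts scaled to a common library size with edgeR's TMM factors. These levels are not divided by gene length, so they are compared between libraries and not between genes.

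Of 18119 genes tested with edgeR's quasi-likelihood test, 1396 (7.70%) passed an adjusted p of 0.05 between regressing thymus and water lymphoma. Among them 568 (3.13% of the genes tested) rose and 828 (4.57%) fell, and 1385 of the 1396 had no overlap between the 3 regressing and the 3 water libraries. Over all genes 7272 (40.1%) had no such overlap. Among called genes the balance differed with the size of the fold. Up to 1 on the log2 scale 4 rose and 3 fell, between 1 and 2 a total of 163 rose and 480 fell, between 2 and 4 the numbers were 212 and 294, and beyond 4 they were 189 and 51. By gene class, 16 of 62 T-cell receptor V segments rose and none fell, whereas 83 of 814 processed pseudogenes fell and 7 rose. Some V segments passed the filter on low counts only through the regressing libraries, so these could only rise. The median log2 fold change of all genes was -0.11, and it was 0.09 when libraries were scaled by total counts alone, so folds close to 0 have no fixed sign. Of 626 tested members of the 41 marker and pathway lists, 39 rose and 65 fell.

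The calls depended on single libraries. The count of 1396 became 86 without regressing replicate 1, 60 without regressing replicate 2, 546 without regressing replicate 3 and 754 without water replicate 2. The balance of directions moved too: the genes that rose were 78 of the 86, 56 of the 60, 338 of the 546 and 378 of the 754, and 645 of 1292 when libraries were scaled by total counts alone. Of 70 called genes that are named here, 12 kept the call without regressing replicate 1 and 10 without regressing replicate 2, against 40, 49, 41 and 52 without regressing replicate 3 and water replicates 1, 2 and 3. With the fat marker level of each library in the fit 315 genes were called, and with the B cell marker level 24. Of the 141 genes named, 28 overlap another annotated gene on their own strand, Rag1 and Rpl4 among them, and 46 overlap one on the other strand, Trdc among them, so their counts are less certain. Tissue makeup also differed within groups. The mean log2 CPM of fat markers was 0.50 to 0.88 in the water libraries and 2.66, 4.40 and 7.17 in the regressing ones, and the mean of B cell markers was 6.66, 6.43 and 3.18 in water and 3.07, 3.28 and 3.79 in regressing libraries. In tissue RNA, fewer cells of a type and less RNA per cell cannot be told apart.

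**Figure D1:**
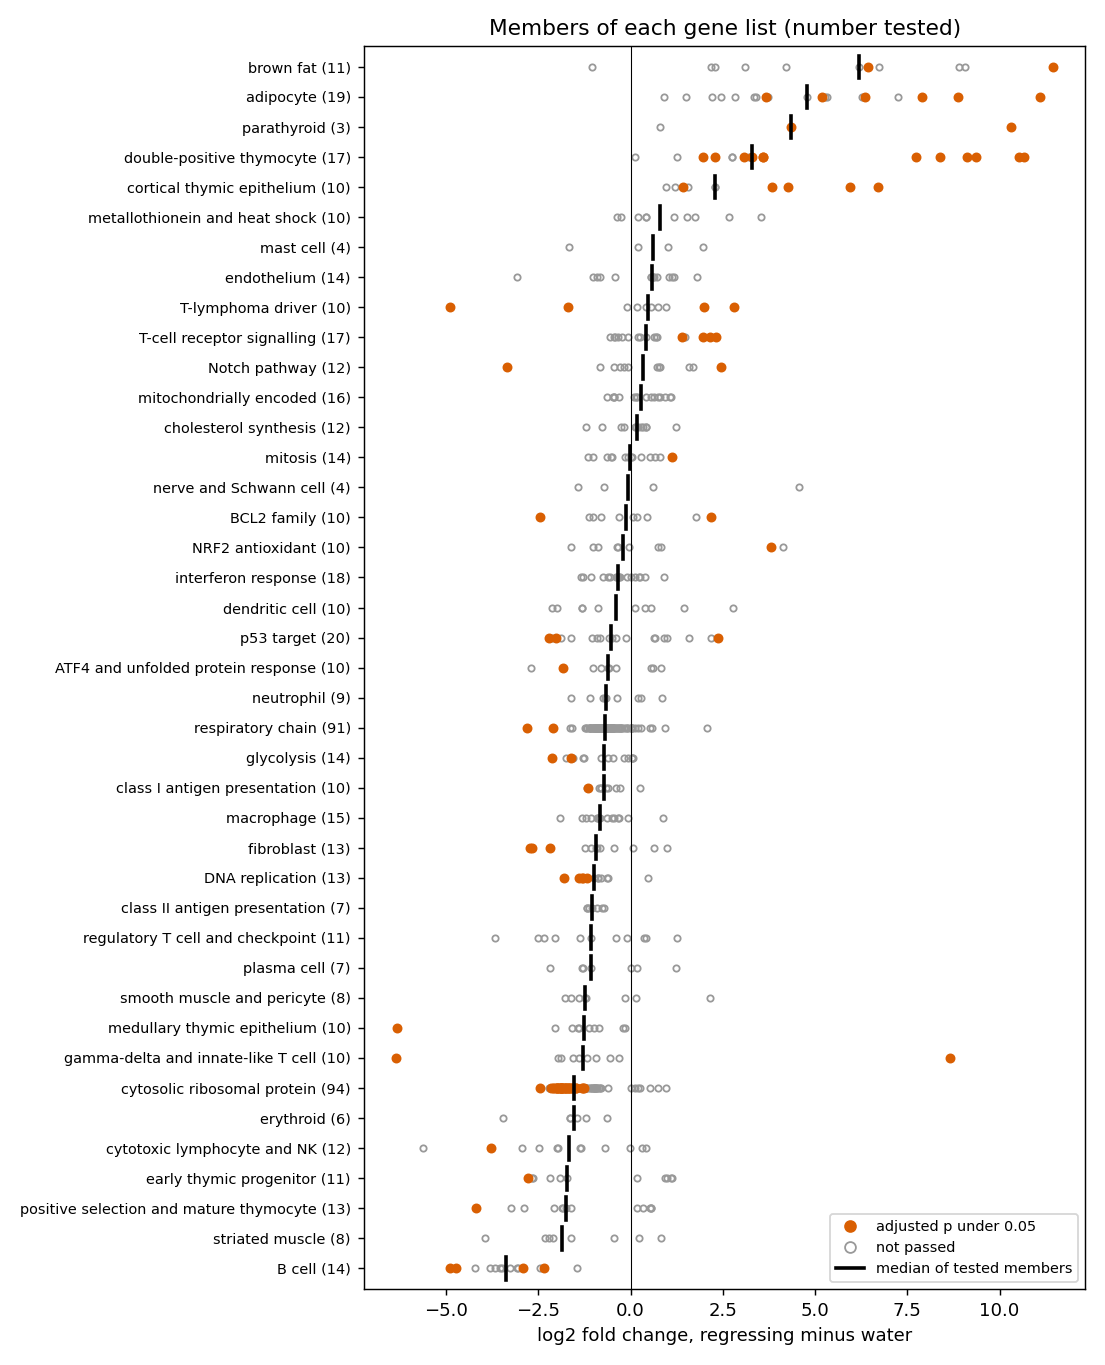
Log2 fold change, regressing minus water, of every tested member of 41 gene lists, with 1 point per gene, filled where the adjusted p was under 0.05, and a bar at the median of the list. The double-positive thymocyte list holds the most filled points to the right (12 of 17) and the cytosolic ribosomal protein list the most to the left (36 of 94).

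Trp53, the gene that carries the mutation, was read in every library. Its level was 319, 284 and 231 CPM in water, 49.9, 153 and 57.8 CPM in progressing and 127, 137 and 99.3 CPM in regressing libraries. Every regressing value lay below every water value, with a log2 fold change of -1.20 (SE 0.42) that did not pass the test (edgeR adjusted p = 0.0948). A transcript count does not show which allele is expressed, so it does not check the genotype.

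Genes of double-positive thymocytes were higher in regressing thymus than in the water lymphomas. Rag1, Rag2, Dntt and Arpp21 were at or below 3.28 CPM in every water library, while Cd8a, Satb1 and Rmnd5a were present there at lower levels. Of 17 list members 12 rose (3.13% of all genes did), none fell, and all 17 had a positive fold change. Their median was 3.28 on the log2 scale against -0.11 for all genes. The CPM of the list summed to 1379, 1252 and 929 in water, to 5199, 4177 and 5519 in progressing and to 15173, 15943 and 8159 in regressing libraries. The lowest regressing sum was thus above every progressing sum, and the lowest progressing sum above every water sum. Regressing libraries were also compared with the progressing ones, and both comparisons share the regressing libraries. There 1 of the 17 members was called higher, where 6.45% of all genes were, and 12.6% of all genes were called in either direction.

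Rag1 (ENSMUSG00000061311, chromosome 2, 101638282 to 101649501, GRCm38), the catalytic subunit of the recombinase, had 2.13, 2.29 and 0.617 CPM in water. It had 591, 258 and 1386 CPM in progressing libraries and 3297, 3393 and 1506 CPM in regressing ones. The regressing values lay above all others, and the log2 fold change against water was 10.67 (SE 0.95, edgeR adjusted p = 0.00135). Its partner Rag2 had 0.387, 0.0764 and 0 CPM in water and 297, 291 and 143 CPM in regressing libraries (log2 fold change 10.53).

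Dntt (ENSMUSG00000025014, chromosome 19, 41029275 to 41059525) encodes terminal transferase, which adds untemplated bases at receptor joints. It had 1.16, 3.28 and 0.37 CPM in water, 791, 432 and 385 CPM in progressing and 1189, 1258 and 679 CPM in regressing libraries. Its log2 fold change was 9.36 (SE 0.84, edgeR adjusted p = 0.00135). Arpp21, a gene with high expression in double-positive cells, gave the smallest adjusted p of the list (4.36e-05), with 0.309 to 0.903 CPM in water and 258 to 448 CPM in regressing libraries. Regressing and progressing libraries did not differ by the test in Rag1 (adjusted p = 0.0779), Dntt (0.281) or Arpp21 (0.176).

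Cd8a, 1 chain of the CD8 co-receptor, had 37.7, 243 and 210 CPM in water and 1868, 1899 and 990 CPM in regressing libraries. It was therefore present in the water lymphomas at a lower level, unlike Rag1, and its log2 fold change was 3.28 (SE 0.62, edgeR adjusted p = 0.0168). Satb1, a chromatin organiser of developing T cells, had 327, 39.5 and 102 CPM in water and 2100, 2211 and 1300 CPM in regressing libraries (log2 fold change 3.58). Rmnd5a, a ubiquitin ligase subunit, rose by 3.06 from 128 to 160 CPM in water. Outside the list, Edem1, which sorts misfolded proteins for degradation, rose by 3.08 from 106 to 157 CPM. Among the members that did not pass, Ccr9, Cd8b1, Tespa1 and Cd24a had log2 fold changes of 2.74, 3.21, 1.27 and 0.13.

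In regressing replicate 3, which had the highest fat markers, Rag1, Cd8a, Satb1 and Dntt each stood at a lower level than in the other two regressing libraries. Fat markers were higher in every regressing than in every water library, while for B cell markers water replicate 3 lay within the regressing range. With the fat marker level in the fit 8 of the 17 members were called higher (median 3.58). With the B cell marker level 3 were (median 3.95). What part tissue makeup had in this result was not tested. Without regressing replicate 3 and water replicate 2 together, 12 of the 17 members were still called higher. Leaving out 1 library at a time gave between 7 calls (without regressing replicate 1, and likewise without regressing replicate 2) and 14 calls (without water replicate 2). Rag1, Rag2, Dntt, Arpp21 and Rmnd5a kept their calls in all 6 of these fits, while Cd8a and Satb1 lost theirs without regressing replicate 1 (adjusted p = 0.07 and 0.0721) and without regressing replicate 2 (0.0822 and 0.0844).

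**Figure D2:**
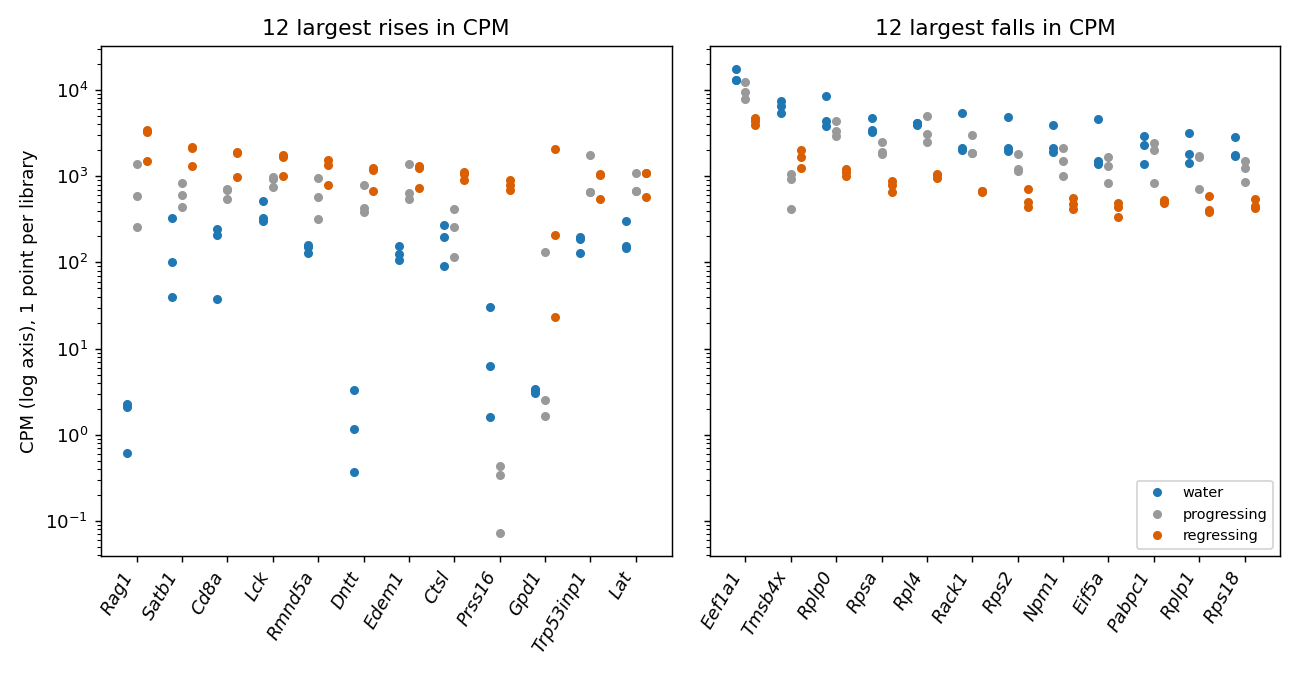
Levels in CPM on a log axis, by library, of the 12 called genes with the largest rise and the 12 with the largest fall in mean CPM between water lymphoma and regressing thymus. Each point is 1 library. The genes were chosen among those without overlap between regressing and water libraries, so the gap between these points follows from the choice, and its size can be read, as for Rag1 with 1506 to 3393 against 0.617 to 2.29 CPM.

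The promoters of 3 of these genes are shown because their genes rose together. Each window runs from 100 bases before to 25 bases after the RefSeq start in GRCm38.p6, on the strand of the gene, with a match to CANNTG in capitals. That motif is the E-box bound by E proteins, factors that act in developing lymphocytes.
Rag1, chr2:101649508-101649632, minus strand: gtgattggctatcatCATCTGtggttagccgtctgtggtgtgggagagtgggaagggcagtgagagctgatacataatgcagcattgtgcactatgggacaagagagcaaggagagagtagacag
Dntt, chr19:41029175-41029299, plus strand: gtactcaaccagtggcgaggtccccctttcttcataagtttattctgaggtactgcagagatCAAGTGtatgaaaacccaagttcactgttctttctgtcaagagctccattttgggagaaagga
Cd8a, chr6:71373327-71373451, plus strand: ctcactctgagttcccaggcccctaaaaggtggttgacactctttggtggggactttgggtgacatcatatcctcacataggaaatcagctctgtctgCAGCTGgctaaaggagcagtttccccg
A match on either strand stood in 10 of the 11 list members that have a RefSeq window, and in 12206 of 27025 windows of all genes (45.2%). CANNTG is its own reverse complement as a pattern, so both strands count the same places. It was chosen after the genes were known, and a match is a description of the letters and not a binding site.

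The T-cell receptor beta locus gave a reading of clonality that does not depend on scaling between libraries. In each water lymphoma 1 V segment held most of the counts over the 35 Trbv segments of the table, and it was a different segment each time. In regressing thymus no segment did, and the same pair of segments came first in all 3 libraries. The end of the segments that led a library is shown, since these are the germline parts that would open each lymphoma's receptor joint. Sequences are the last 75 bases of the segment in the GENCODE annotation of GRCm38, with capitals from the codon of the conserved cysteine to the end of the segment.
Trbv12-1, chr6:41113993-41114067, plus strand: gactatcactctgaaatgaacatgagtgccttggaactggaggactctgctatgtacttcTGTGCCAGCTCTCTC
Trbv4, chr6:41059812-41059886, plus strand: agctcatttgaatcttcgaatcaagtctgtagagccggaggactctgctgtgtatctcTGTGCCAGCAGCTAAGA
Trbv13-2, chr6:41121758-41121832, plus strand: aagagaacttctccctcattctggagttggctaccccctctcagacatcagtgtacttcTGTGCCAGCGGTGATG
Trbv31, chr6:41557691-41557765, minus strand: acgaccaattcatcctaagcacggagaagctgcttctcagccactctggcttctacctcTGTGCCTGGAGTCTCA
Trbv20, chr6:41188903-41188977, plus strand: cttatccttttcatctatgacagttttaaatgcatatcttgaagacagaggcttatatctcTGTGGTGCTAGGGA
The first 3 led the 3 water libraries in replicate order, Trbv31 led progressing replicates 1 and 3, Trbv20 led progressing replicate 2, and Trbv13-2 led all 3 regressing libraries.

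In water replicate 1, Trbv12-1 held 4503 of 4809 Trbv counts, or 93.6% (Wilson 95% interval 92.9% to 94.3%). In water replicate 2, Trbv4 held 1386 of 1484 (93.4%, 92.0% to 94.6%). Water replicate 3 had a pair of leading segments, with 1717 of 2246 counts (76.4%, 74.6% to 78.2%) on Trbv13-2 and 494 on Trbv12-2. A leading segment of 1 water library was scarce in the others: Trbv12-1 had 1 count in each of water replicates 2 and 3, and Trbv4 had 12 counts in replicate 1 and 1 count in replicate 3.

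In the regressing libraries the leading share was 13.8% (13.1% to 14.5%), 14.0% (13.3% to 14.8%) and 9.99% (9.23% to 10.8%), with Trbv13-2 in front each time. Trbv2 came second in all 3, with 8.80%, 9.30% and 8.76%. The segments that led the water lymphomas were present as well, Trbv12-1 with 5.83%, 5.90% and 6.51% and Trbv4 with 2.82%, 2.96% and 3.78%. Segments with at least 10 counts numbered 22 in every regressing library, against 16, 5 and 3 in water and 10, 15 and 8 in progressing libraries. The intervals cover counting error only.

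The mean leading share was 87.8% ± 9.86 (SD, n = 3) over the water libraries and 12.6% ± 2.26 (SD, n = 3) over the regressing ones. An exact two-sided permutation test gave p = 0.1, the smallest value that 3 against 3 libraries allow, since the groups did not overlap. The progressing libraries had 94.3%, 85.8% and 78.2%, of which the first lay above all 3 water libraries and the others within their range. At the level of genes, 15 of 22 tested Trbv segments rose, beside 3.13% of all genes, and none of the others fell. Some passed the filter on low counts only through the regressing libraries, as Trbv26 with 1 count in each water library. Such segments could only rise, so this count adds no separate support. Related segments share sequence, and reads that fit more than 1 of them could be divided in ways the sources used here do not state.

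**Figure D3:**
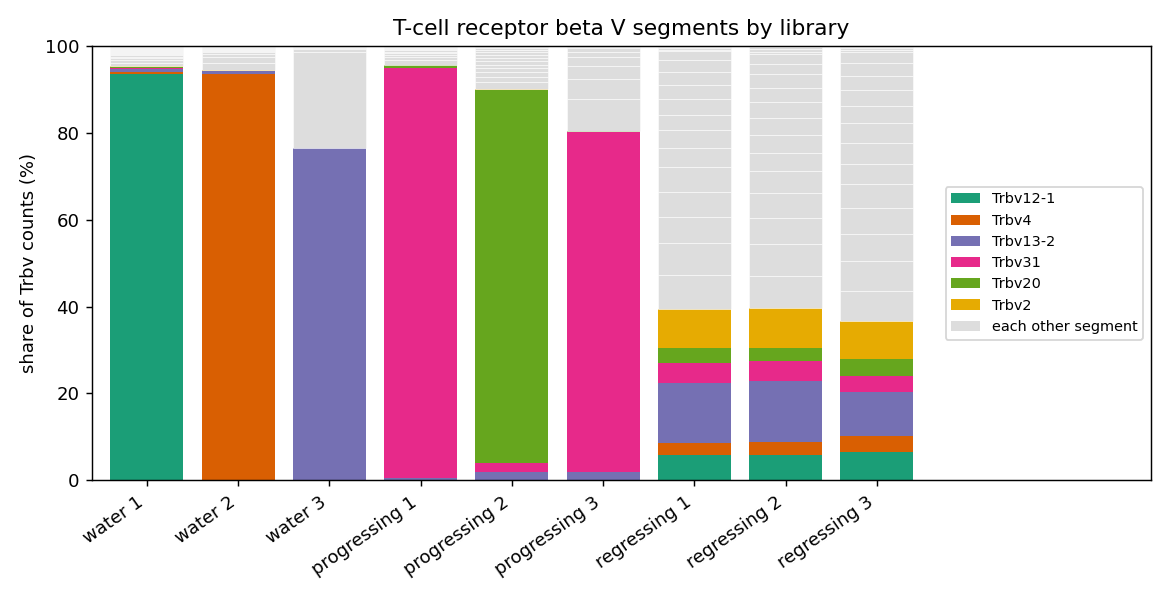
Share of Trbv counts held by each V segment, in percent, in the 9 libraries. One colour fills 76.4% or more of each water and progressing bar, whereas the largest piece of a regressing bar is 9.99% to 14.0%.

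The alpha locus, with 130 Trav segments in the table, also had a lower leading share in every regressing than in every water library. At the level of genes, 1 of 36 tested Trav and 2 of 9 tested Traj segments rose, beside 3.13% of all genes. Some Trav segments, as Trav19 with 0 counts in each water library, passed the filter on low counts only through other libraries. Such segments could only rise, so this count adds no separate support. The leading segment held 46.8%, 85.6% and 38.1% in water (Trav3-3, Trav10n and Trav10) and 7.12%, 4.80% and 4.29% in regressing libraries (exact two-sided permutation p = 0.1). Unlike at the beta locus, progressing libraries stood between, with 69 of 674, 40 of 307 and 18 of 102 Trav counts on the leading segment. Segments with at least 10 counts numbered 3, 4 and 5 in water and 46, 43 and 34 in regressing libraries. Segments of the Trav cluster are duplicated and near-identical, so the identity of a leading segment is uncertain.

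Among the proteins that carry the receptor signal, Lck, Cd247, Lat and Plcg1 rose, while the CD3 epsilon and delta chain genes did not pass the test. Of 17 members 4 rose (3.13% of all genes did) and none fell, with a median of 0.41. The list summed to 3827 to 4452 CPM in water and 4714 to 7855 CPM in regressing libraries. Lck, the kinase bound to CD4 and CD8, had 301, 516 and 325 CPM in water and 1659, 1774 and 1003 CPM in regressing libraries (log2 fold change 1.96, SE 0.37, edgeR adjusted p = 0.0165). Cd247, the zeta chain, rose by 2.30 from 62.8 to 69.4 CPM in water to 183 to 405 CPM, and Lat, the adaptor below the receptor, rose by 2.17. Cd3e and Cd3d had log2 fold changes of 0.69 and -0.34. The zeta chain thus differed from the other named receptor chains, a contrast that was not itself tested. Without regressing replicate 1, and likewise without regressing replicate 2, none of the 17 was called.

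Of the list of positive selection and mature thymocytes 1 of 13 members fell (7.69%, beside 4.57% of all genes) and none rose. The median was -1.74, and 5 of the 13 had positive folds. The list summed to 2527, 1353 and 2090 CPM in water, to 188, 274 and 87.6 CPM in progressing and to 679, 580 and 599 CPM in regressing libraries, so the regressing sums lay between the other groups without overlap. Ms4a4b, a membrane protein of mature T cells, had 869, 376 and 477 CPM in water and 28.8, 19.5 and 45.8 CPM in regressing libraries. It fell by 4.19 in log2 units (SE 0.78; adjusted p = 0.0161 in edgeR), and it was 3.53 higher than in progressing libraries (adjusted p = 0.0215). Cd69 and Egr2, induced by receptor signals, had log2 fold changes of 0.54 and 0.52 against water, with overlap between the groups, and of 4.89 and 3.19 against progressing libraries, both past the test there. Against progressing libraries 6 of the 13 members were called higher, beside 6.45% of all genes.

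Early progenitor genes included 1 that fell among 11 (9.09%, beside 4.57% of all genes), with a median of -1.71. Lmo2, a transcriptional adaptor of progenitors, had 69.3, 42.3 and 76.2 CPM in water and 7.36, 6.07 and 13.8 CPM in regressing libraries, and fell by 2.78. Kit and Flt3, receptors of progenitors, had log2 fold changes of 0.997 and 0.18. Gamma-delta and innate-like genes gave 1 rise and 1 fall among 10, where 3.13% and 4.57% of all genes rose and fell. Trdc, the delta constant region, had 0.838, 0 and 0.123 CPM in water and 124, 148 and 136 CPM in regressing libraries (log2 fold change 8.66, edgeR adjusted p = 0.0389). The groups lie far apart, yet its call was lost whichever of the 6 libraries was left out (adjusted p from 0.0584 to 0.125). Cd163l1, a scavenger receptor of gamma-delta cells, fell by 6.34 from 28.6, 687 and 793 CPM to 6.50, 7.98 and 4.09 CPM. No gene of the list was called lower without water replicate 2, water replicate 3 or any 1 of the regressing replicates. Without water replicate 1, 1 was. Trgc1 and Trgc2, gamma constant regions, had folds of -0.30 and -0.94 that did not pass.

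Among cytotoxic genes Eomes fell by 3.77, 1 of 12 members (4.57% of all genes fell), and Gzma and Gzmb did not pass (-1.98 and -1.38). Gzma was high in 1 water library, with 9.80, 609 and 8.21 CPM, and stood at 49.7 to 54.8 CPM in the regressing libraries. None of 11 regulatory T-cell and checkpoint genes passed in edgeR, with a median of -1.06, while 4 had an unadjusted p under 0.05 and DESeq2 called 4. In all, 16 of the 41 lists had no call in edgeR. Of their 159 members 26 had an unadjusted p under 0.05, DESeq2 called 13 and limma-voom 1. Foxp3 and Ctla4 had log2 fold changes of 1.25 and -1.06 on levels of 2.40 to 2.57 and 7.27 to 7.65 CPM in regressing libraries.

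Genes that recur as drivers of T-cell lymphoma moved in both directions. Cdkn2a (ENSMUSG00000044303, chromosome 4, 89274471 to 89294653) encodes the INK4A and ARF tumour suppressors. It had 165, 455 and 151 CPM in water, 135, 347 and 190 CPM in progressing and 5.75, 1.55 and 18.5 CPM in regressing libraries. The 6 lymphoma libraries were alike in range and the regressing libraries lay below all of them, by 4.90 in log2 units against water (SE 0.87, edgeR adjusted p = 0.0142) and by 4.70 against progressing (adjusted p = 0.0145). Regressing replicate 3 had the highest of the 3 levels, and the call against water was lost without regressing replicate 1 (adjusted p = 0.0772) and without regressing replicate 2 (0.0563).

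Bcl11b, a factor that fixes T-cell identity, rose by 2.80 from 100, 39.8 and 89.6 CPM to 616, 594 and 386 CPM. Ccnd3, the D-type cyclin that thymocytes use to expand, rose by 1.98 from 101 to 174 CPM to 416 to 662 CPM. Both stood between water and regressing levels in the progressing libraries, at 150 to 275 and 183 to 303 CPM. Tal1 and Lmo1, oncogenes of T-cell leukaemia, were at or below 3.30 CPM in all 6 libraries and did not pass. In all 2 of 10 tested members rose and 2 fell, beside 3.13% and 4.57% of all genes.

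In the Notch list 1 of 12 members rose and 1 fell, beside 3.13% and 4.57% of all genes. Notch receptors drive T-cell fate, and Notch1 is activated in many T-cell leukaemias. Notch1 had 50.2, 16.2 and 36.9 CPM in water, 517, 154 and 702 CPM in progressing and 110, 122 and 99.6 CPM in regressing libraries. The regressing values were above water without passing the test (log2 fold change 1.68, edgeR adjusted p = 0.0779) and were -2.05 against progressing, which passed (adjusted p = 0.0374). Notch3 had log2 fold changes of 0.80 and -1.44 in the same comparisons, and neither passed.

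Myc, which Notch1 can induce, had 200, 996 and 171 CPM in water, 70.9, 87.8 and 35.3 CPM in progressing and 32.9, 36.8 and 64.6 CPM in regressing libraries. It fell by 3.35 against water (SE 0.70, edgeR adjusted p = 0.0228) and did not differ by the test from progressing (-0.53). Water replicate 2 was the highest, and without it the call stood (adjusted p = 0.0371), but it was lost without each of the regressing replicates (adjusted p from 0.0515 to 0.124). Il2ra, the interleukin-2 receptor alpha chain, rose by 2.46 from 2.90 to 10.8 CPM in water to 34.0 to 46.5 CPM, a call that was lost without any 1 of the 6 libraries (adjusted p from 0.0578 to 0.172).

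The 12 genes that lost most CPM are abundant ones, since the ranking is by CPM and not by fold. Eef1a1, the elongation factor that brings transfer RNA to the ribosome, lost the most: 13210, 17474 and 12902 CPM in water, 9461, 12228 and 7964 CPM in progressing and 3895, 4364 and 4705 CPM in regressing libraries. The fall was 1.75 on the log2 scale, and the adjusted p was 0.0353. Rpl4 (ENSMUSG00000032399, chromosome 9, 64173375 to 64178666), a protein of the large subunit, had 4122, 4103 and 3959 CPM in water and 958, 1069 and 1031 CPM in regressing libraries. Its replicates agree closely in both groups, and it fell by 1.99 (SE 0.38, edgeR adjusted p = 0.0176).

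Rack1, a scaffold on the small subunit, had 2034, 5363 and 2111 CPM in water and 654, 667 and 678 CPM in regressing libraries, a fall of 2.25. The stalk protein genes Rplp0 and Rplp1 fell by 2.33 and 2.21, and the small-subunit genes Rpsa, Rps2 and Rps18 by 2.30, 2.45 and 2.15. Npm1, the nucleolar chaperone of ribosome assembly, fell by 2.46, Eif5a, a translation factor, by 2.55, and Pabpc1, the poly(A)-binding protein, by 2.10. Tmsb4x, which binds actin monomers, fell by 1.97, from 7477, 5404 and 6493 CPM to 1663, 1251 and 2026 CPM. Its progressing level was 932, 1048 and 420 CPM, below the regressing one, unlike that of the other 11 genes. Without regressing replicate 1, and likewise without regressing replicate 2, none of the 12 passed (adjusted p from 0.0723 to 0.167). Fat and B cell markers differed between the groups here too, the latter not in water replicate 3. What part tissue makeup had in these falls was not tested.

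Across the list of genes named Rpl or Rps with a number, 36 of 94 tested members fell (4.57% of all genes did), none rose, and the median was -1.53. Rplp0, Rplp1 and Rpsa are therefore not in it. The list includes Rps19bp1, whose product is not a ribosomal protein. It also holds 9 Rps6k genes, which encode kinases and not ribosomal proteins, and none of these 9 passed. Of the other 85, 83 had a negative fold change, and the range of the called ones was -2.45 to -1.25. Their CPM summed with the rest of the list to 53144, 108031 and 51499 in water, to 53034, 79392 and 45280 in progressing and to 21034, 22237 and 25114 in regressing libraries. Every regressing sum was thus under every lymphoma sum. Between regressing and water libraries 80 of 94 members had no overlap, beside 40.1% of all genes. Rpl36 fell by 1.89, while Rpl13 and Rpl3l, first in the list, did not pass (-0.92 and 0.52). Against progressing libraries 30 members were called lower, beside 6.18% of all genes.

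The count rests on few libraries. It was 5 without regressing replicate 3, 15 without water replicate 2, 5 without both, and 0 without regressing replicate 1 or without regressing replicate 2. The median stayed between -1.74 and -0.97. Ribosomal protein genes have many processed copies, and 30 of the 98 tested copies named as ribosomal protein pseudogenes fell while 1 rose. A copy and its parent share most of their sequence, so reads of one can be counted on the other, and 2 of the 36 called members, Rps18-ps5 and Rps12-ps3, are named as such copies.

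The promoters of Rpl4 and Rack1 are shown because vertebrate ribosomal protein genes start at a pyrimidine tract. The windows are those used for Rag1, and capitals mark a match to CTTTC on the gene's strand.
Rpl4, chr9:64173287-64173411, plus strand: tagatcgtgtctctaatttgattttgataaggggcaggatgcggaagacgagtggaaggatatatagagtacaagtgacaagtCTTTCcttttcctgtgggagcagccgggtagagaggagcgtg
Rack1, chr11:48800260-48800384, plus strand: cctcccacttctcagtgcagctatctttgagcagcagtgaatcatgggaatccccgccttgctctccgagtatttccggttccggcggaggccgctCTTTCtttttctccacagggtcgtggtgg
A match stood in 28 of 70 list members with a window (40.0%), in 12 of the 27 that fell and have a window, in 2 of the 11 windows of the double-positive list, and in 17.9% of all windows. The motif was chosen after the genes were known, and a match is a description of the letters.

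Of 13 DNA replication genes 5 fell (4.57% of all genes did), none rose, and the median was -0.99. Their summed level was 2863, 4228 and 2466 CPM in water and 1490, 2020 and 1665 CPM in regressing libraries. Mcm6, a subunit of the replicative helicase, had 438, 565 and 366 CPM in water and 165, 213 and 171 CPM in regressing libraries, a fall of 1.32. Mcm2 of the same helicase fell by 1.19 and Gins2, which joins it to the polymerase, by 1.81. Mcm3 was -1.28 and did not pass.

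Of 14 mitotic genes 1 rose (7.14%, beside 3.13% of all genes), none fell and the median was -0.02. The difference between both lists was not tested. Mki67, a marker of cycling cells, had 681, 384 and 470 CPM in water and 798, 988 and 626 CPM in regressing libraries (log2 fold change 0.65). Top2a, which untangles chromosomes, had -0.06, and the kinetochore gene Cenpf rose by 1.14. No replication gene was called without water replicate 2, nor without any 1 of the regressing replicates, and Cenpf lost its call without any 1 of the 6 libraries (adjusted p from 0.0509 to 0.207).

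Cortical thymic epithelium, the stroma that supports double-positive thymocytes, was read at a higher level in regressing thymus than in either lymphoma group. Of 10 genes 5 rose (3.13% of all genes did), none fell, all 10 had positive folds, and the median was 2.29. The list summed to 137, 239 and 442 CPM in water, to 93.7, 120 and 106 CPM in progressing and to 2362, 2206 and 1938 CPM in regressing libraries. Against progressing libraries 9 of the 10 were called higher, beside 6.45% of all genes.

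Prss16 (ENSMUSG00000006179, chromosome 13, 22002173 to 22009742), the thymus-specific serine protease, had 1.61, 30.5 and 6.24 CPM in water, 0.432, 0.338 and 0.0735 CPM in progressing and 894, 801 and 685 CPM in regressing libraries. The log2 fold change was 5.96 against water (SE 0.95, edgeR adjusted p = 0.0106) and 11.40 against progressing. Psmb11, the proteasome subunit found in cortical epithelium, had 0.258, 0.993 and 0.617 CPM in water and 67.9, 71.4 and 56.1 CPM in regressing libraries (log2 fold change 6.70). Ccl25, a chemokine that draws thymocytes, had 25.1, 11.8 and 35.3 CPM in water and 354, 358 and 325 CPM in regressing libraries (log2 fold change 3.84). These 3 genes kept their calls in all 6 fits that leave 1 library out.

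Ctsl, the lysosomal protease that cortical epithelium uses to make class II peptides but which other cells express too, rose by 2.48, from 90.0, 270 and 195 CPM to 1062, 899 and 1131 CPM. Foxn1, the master regulator of thymic epithelium, had a fold of 0.97 that did not pass. The number of calls was 3 without regressing replicate 1 and without regressing replicate 2, 8 without water replicate 3, and 3 without regressing replicate 3 and water replicate 2 together.

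Of 10 genes of medullary epithelium 1 fell (4.57% of all genes did), none rose and the median was -1.26. The summed level was 142, 525 and 1410 CPM in water and 220, 129 and 296 CPM in regressing libraries, so the groups overlapped. Aire, which lets the medulla express tissue antigens, had 46.9, 1.76 and 139 CPM in water and 19.1, 9.32 and 17.3 CPM in regressing libraries. Ccl21a, a chemokine for mature T cells, fell by 6.33 with water values of 5.42, 370 and 469 CPM, of which the first lay within the regressing range of 0.989 to 5.51 CPM, and the gene no longer passed once water replicate 2 was set aside (adjusted p = 0.0566). Near-identical Ccl21 copies exist in the mouse genome, so its count is uncertain. Krt5, a keratin of the medulla, had 35.6, 83.1 and 437 CPM in water and 98.2, 51.2 and 128 CPM in regressing libraries and did not pass.

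Parathyroid genes were read in regressing thymus. Pth (ENSMUSG00000059077, chromosome 7, 113385580 to 113388570), the parathyroid hormone, had 0.0645, 0 and 0.0617 CPM in water, 0 in all 3 progressing and 102, 59.6 and 40.1 CPM in regressing libraries. Since every water library had at most 3 counts, the level was at least 294-fold higher, taking 3 counts per library as the limit. Chga, a protein of secretory granules, rose by 4.35 from 0.535 to 4.88 CPM to 19.5 to 70.4 CPM, and Gcm2, the regulator of the gland, did not pass (0.81). Both Pth and Chga were highest in regressing replicate 1 and lowest in regressing replicate 3. Of the 2 genes Chga lost its call without regressing replicate 1 (adjusted p = 0.0891) and without regressing replicate 2 (0.0842). Pth, at or near 0 in every water and progressing library, passed the filter on low counts only through the regressing libraries. It could therefore only rise, so its call adds no separate support.

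**Figure D4:**
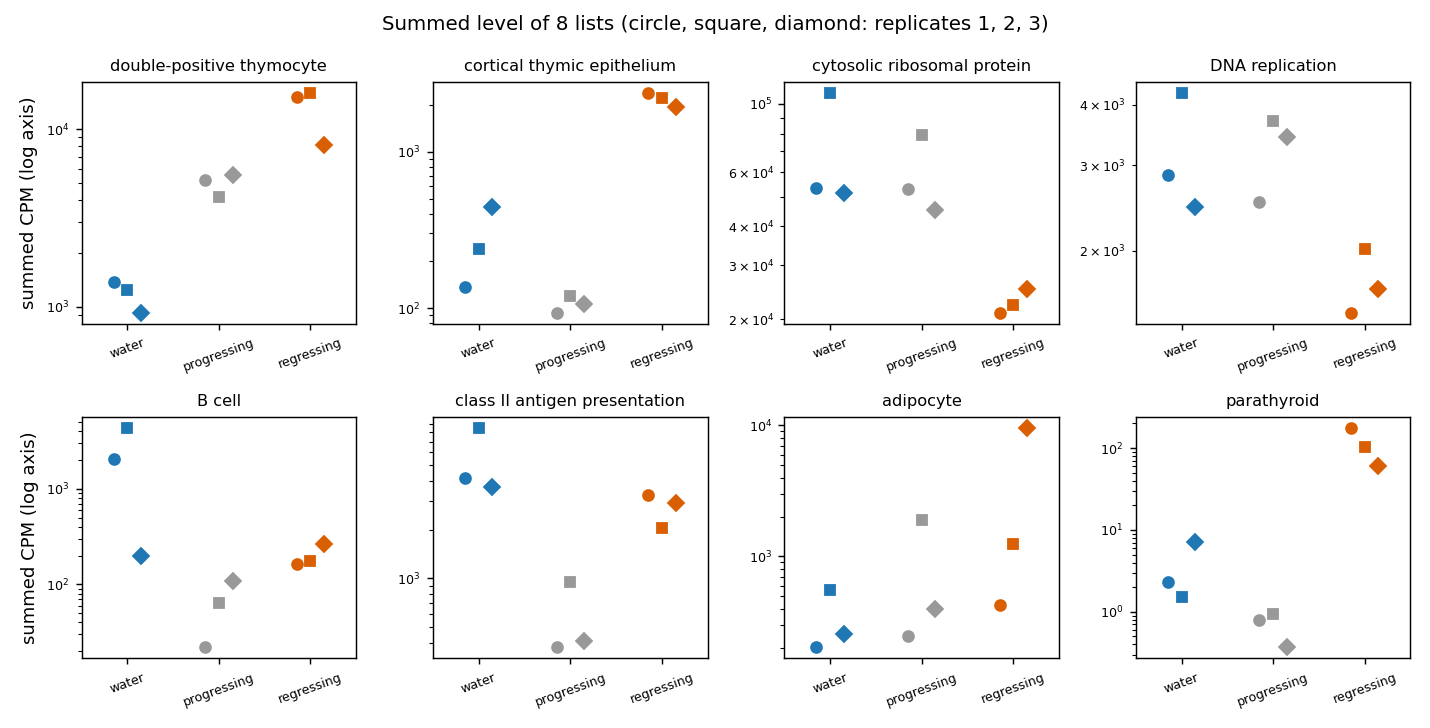
Summed CPM of 8 lists by library, on log axes, with a circle, square and diamond for replicates 1, 2 and 3. Cortical epithelium is at 1938 to 2362 CPM in the 3 regressing libraries against 442 CPM or less in the other 6, while fat genes differ among the regressing libraries themselves.

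Fat genes, in contrast, were highest in regressing replicate 3. The adipocyte list summed to 202, 554 and 256 CPM in water, to 247, 1905 and 394 CPM in progressing and to 428, 1253 and 9552 CPM in regressing libraries. Regressing replicate 3 was far above its 2 companions, and replicate 1 lay within the water range. Of 19 adipocyte genes 6 rose (median 4.77), and 2 of 11 brown fat genes did (median 6.20), beside 3.13% of all genes. Without regressing replicate 3 the medians were 2.61 and 3.24. Gpd1, which makes the glycerol backbone of fat, is among the 12 largest rises in CPM, with 3.10, 3.28 and 3.40 CPM in water, 1.66, 131 and 2.57 CPM in progressing and 23.1, 208 and 2088 CPM in regressing libraries.

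Lep, the hormone leptin, was at 0 in all 3 water libraries and had 1.24, 5.79 and 48.4 CPM in regressing ones, at least 80.7-fold higher with the limit of 3 counts per library. Regressing replicate 3 carries that mean, and without it the bound is 15.3-fold. Ucp1, the heat-making uncoupling protein of brown fat, had 0.129, 0 and 0.309 CPM in water and 13.9, 143 and 1194 CPM in regressing libraries (log2 fold change 11.44, SE 3.11, edgeR adjusted p = 0.0498). Plin1 and Plin4, which coat lipid droplets, Slc2a4, the insulin-responsive glucose transporter, and the fatty-acid binding protein Fabp3 rose by 8.88, 6.36, 3.68 and 6.44 in the same order of replicates. Adipoq and Cidea had folds of 4.77 and 8.91 that did not pass.

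The calls of both lists depended on single libraries. Without regressing replicate 3 and water replicate 2 neither fat list had a call, and each fit that left out 1 library gave at most 1 call per list. Progressing replicate 2 also held fat RNA, with Ucp1 at 159 CPM, so that fat was not restricted to the regressing libraries.

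Of 14 B cell markers 4 fell (28.6%, beside 4.57% of all genes), all 14 had negative folds and the median was -3.37. The summed level was 2067, 4327 and 197 CPM in water, 21.9, 63.2 and 109 CPM in progressing and 164, 177 and 262 CPM in regressing libraries. Water replicates 1 and 2 were high, while water replicate 3 lay within the regressing range. Spib, a factor of B and plasmacytoid cells, had 127, 337 and 66.1 CPM in water and 18.4, 13.3 and 37.9 CPM in regressing libraries, a fall of 2.93. Blnk, an adaptor of the B-cell receptor, fell by 2.34, and Ms4a1, which encodes CD20, by 4.72. Cd79a, a signalling chain of the B-cell receptor, was -3.81 and did not pass.

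The number of B cell calls was 2, 1 and 10 without water replicates 1, 2 and 3, and 0, 0 and 1 without regressing replicates 1, 2 and 3. Immunoglobulin segments were uneven in water replicate 2. There Ighv12-3 held 96.4% of 6488 heavy-chain V counts, and Igkv19-93 and Igkv4-91 held 59.6% and 38.1% of 35945 kappa V counts. In water replicate 3 the leading segments held 23.6% (Ighv1-9) and 27.3% (Igkv19-93), and in water replicate 1 they held 6.24% and 7.97%. The leading heavy-chain segment of the regressing libraries held 8.90%, 18.7% and 10.3%, and the leading kappa segment 11.4%, 9.28% and 6.24%. Exact two-sided permutation tests of the leading share over 3 against 3 libraries gave p = 0.4 for the heavy and 0.3 for the kappa locus.

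Plasma cell genes did not pass. Jchain (ENSMUSG00000067149, chromosome 5, 88519809 to 88527891), which joins secreted antibody chains, had 317, 257 and 96.9 CPM in water, 5.92, 7.69 and 1.91 CPM in progressing and 537, 418 and 618 CPM in regressing libraries. All regressing values exceeded all water values, with a log2 fold change of 1.23 that did not pass (edgeR adjusted p = 0.154) and of 6.66 against progressing that did (adjusted p = 0.00298). Mzb1, a chaperone of antibody secretion, was -2.18 against water and did not pass.

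Of 15 macrophage, 10 dendritic, 9 neutrophil, 6 erythroid and 4 mast cell markers none passed against water, with medians of -0.82, -0.39, -0.68, -1.54 and 0.62. Macrophage genes summed to 1945 to 2778 CPM in water and 663 to 1145 CPM in regressing libraries. Adgre1 and Csf1r, receptors of macrophages, had folds of -0.32 and -0.84, and Itgax and Xcr1 of dendritic cells -1.33 and 0.39. S100a8 and S100a9 of neutrophils had -0.75 and -0.70, the globin genes Hbb-bs and Hbb-bt -1.64 and -1.45, and Cpa3 and Mcpt4 of mast cells -1.68 and 1.97. Globin was high in water replicate 2, where Hbb-bs had 521 CPM against 12.3 and 11.1 in the other two. Against progressing libraries 5 of the 10 dendritic markers were higher (6.45% of all genes were), Xcr1 by 4.31.

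Stromal genes fell in part. Of 13 fibroblast genes 3 fell, beside 4.57% of all genes. These 3 were the fibrillar collagens Col1a1, Col1a2 and Col3a1, which fell by 2.68, 2.17 and 2.73. Col1a1 had 76.0, 40.7 and 116 CPM in water, 113, 233 and 217 CPM in progressing and 7.49, 4.16 and 24.6 CPM in regressing libraries, below all lymphoma libraries. Regressing replicate 3 was the highest of its group in all 3 collagens. Without it 4 fibroblast genes were called, and without water replicate 3, or regressing replicate 1, or regressing replicate 2, none was.

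Endothelial, smooth muscle, striated muscle and nerve lists held no call, with medians of 0.59, -1.22, -1.86 and -0.06. Their first members Pecam1 and Cdh5 had folds of 0.55 and 0.57, Acta2 and Tagln of -1.77 and -1.25, Acta1 and Myh4 of -2.31 and -2.11 on levels of at most 2.65 CPM in these 6 libraries, and Tubb3 and Mbp of -1.44 and 0.61.

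Antigen presentation genes lay between the lymphoma groups. Class I genes summed to 6455, 6117 and 7225 CPM in water, to 1555, 2754 and 1158 CPM in progressing and to 4292, 3144 and 4605 CPM in regressing libraries, in 3 ranges that do not overlap. Of 10 genes 1 fell against water (4.57% of all genes did), the immunoproteasome subunit Psmb8, by 1.16. Against progressing 5 were higher, beside 6.45% of all genes. H2-K1, a class I heavy chain, had -0.80 against water and 2.39 against progressing, and B2m, the light chain, -0.62 and 0.79. Class II genes had no call against water (median -1.05) and 4 of 7 were higher than in progressing libraries. H2-Aa and H2-Ab1, the 2 chains of a class II molecule, had 805, 494 and 700 CPM and 565, 352 and 547 CPM in regressing libraries and folds of -0.71 and -0.78 against water. None of 18 interferon-response genes passed against water (median -0.33), while 10 did against progressing. Ifit1, an interferon-induced protein, had folds of 0.12 and 4.05 against water and progressing and Isg15 -0.34 and 2.05, of which the latter did not pass.

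Few genes that p53 activates were called against water. Of 20 members 1 rose and 2 fell, beside 3.13% and 4.57% of all genes, and the median was -0.54. Against progressing libraries 5 of the 20 were called lower, beside 6.18% of all genes, with a median of -1.27. The list summed to 960, 1996 and 1053 CPM in water, to 2363, 4951 and 2766 CPM in progressing and to 2330, 2302 and 1626 CPM in regressing libraries. Trp53inp1, a stress protein of autophagy and cell death, had 128, 200 and 185 CPM in water, 656, 1764 and 663 CPM in progressing and 1047, 1061 and 544 CPM in regressing libraries. It rose by 2.37 (SE 0.48, edgeR adjusted p = 0.021).

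Bax, the pore-forming death protein, had 61.8, 247 and 62.9 CPM in water, 112, 179 and 182 CPM in progressing and 27.7, 24.6 and 28.5 CPM in regressing libraries. It fell by 2.20 against water and was -2.55 against progressing (adjusted p = 0.0198). Rps27l, a p53-induced ribosomal protein copy, fell by 2.02. Cdkn1a, which encodes p21, had -0.39, and Mdm2, the ligase that degrades p53, had 0.62. Neither passed, and progressing replicate 2 had the highest level of both, at 136 and 539 CPM. Without water replicate 2 neither Bax (adjusted p = 0.0518) nor Rps27l (0.0986) was called.

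In the BCL2 family Bcl2l1, which encodes BCL-XL, a survival protein of double-positive thymocytes, rose by 2.18. It had 19.5, 36.6 and 26.2 CPM in water and 125, 150 and 96.8 CPM in regressing libraries. Bcl2a1b, a survival protein with near-identical copies that make its count uncertain, fell by 2.46. These were 1 rise and 1 fall among 10 tested members, beside 3.13% and 4.57% of all genes. Whichever water or regressing library was left out, no member was called lower. Without regressing replicate 1, and likewise without regressing replicate 2, none was called higher. Bcl2, higher in more mature T cells, was at 0.06 against water and 2.76 higher than in progressing libraries (adjusted p = 0.011).

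Stress responses often read after arsenic exposure showed few calls. Nqo1, an NRF2-driven reductase, had 0.387, 2.29 and 2.35 CPM in water, 2.59, 1.78 and 0.588 CPM in progressing and 25.1, 28.2 and 17.7 CPM in regressing libraries. It rose by 3.82 against water (SE 0.78, edgeR adjusted p = 0.0213) and was 3.83 higher than in progressing libraries, which had also been given arsenic trioxide. It was the only call of 10 NRF2 genes (7.70% of all genes were called), and Hmox1, another NRF2 target, had -1.63 and did not pass. Metallothionein and heat shock genes had no call (median 0.80), with Mt1 and Mt2 at -0.26 and 0.41. In the list of ATF4 and unfolded-protein genes 1 of 10 fell (4.57% of all genes did), Psat1 of serine synthesis by 1.84. Atf4 and Atf3 had -0.61 and -0.59.

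Metabolic lists were mostly without calls. Among 14 glycolysis genes Pgk1 and Tpi1 fell by 1.62 and 2.14 (14.3%, beside 4.57% of all genes). Hk1 and Hk2 had folds of 0.05 and 0.08. Regressing replicate 3 stood apart, with the list at 5536 CPM against 1580 and 2040 in the other two. No cholesterol synthesis gene passed (Hmgcs1 had a fold of 0.41), and no mitochondrially encoded gene did (mt-Rnr1 0.92, mt-Rnr2 1.06). Of 91 tested entries of the respiratory chain list Atp5g1 and Ndufa4l2 fell, by 2.11 and 2.80, while Cox5a and Sdhd had -0.79 and -0.74. The list, set by symbol, counts Atp5o more than once and includes Ndufaf genes, which encode assembly factors and not subunits. The share that fell, 2.20%, was below the 4.57% of all genes.

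Whole chromosomes also distinguished the groups, by how much libraries of 1 group differed. For each library the median over the tested genes of a chromosome was taken from log2 CPM minus the mean of the 9 libraries, centred on the median of all tested genes. Among the water libraries these chromosome medians spread over a range, highest minus lowest, of 0.224 as the median of 20 chromosomes, with the widest range, 0.534, on chromosome 9. The progressing libraries had 0.275, with 0.676 on chromosome 5. The regressing libraries had 0.0399, and their widest range was 0.0902, on chromosome 16.

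The regressing range was below the water range on 19 of 20 chromosomes and below the progressing range on all 20. The exception against water was chromosome 4, with 0.0329 against 0.0305. On chromosome 9 the water libraries stood at 0.16, -0.20 and 0.33 and the regressing ones at -0.12, -0.09 and -0.04. With the genes of at least 10 CPM the medians were 0.268, 0.362 and 0.0311. Regressing libraries were also more alike over all tested genes. Correlations of log2 CPM within a group were 0.938 to 0.977 in regressing, 0.871 to 0.919 in water and 0.878 to 0.905 in progressing libraries. What part this likeness had in the chromosome ranges was not tested. These are descriptions with no test, since the genes of a chromosome are not replicates, and copy number was not measured.

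**Figure D5:**
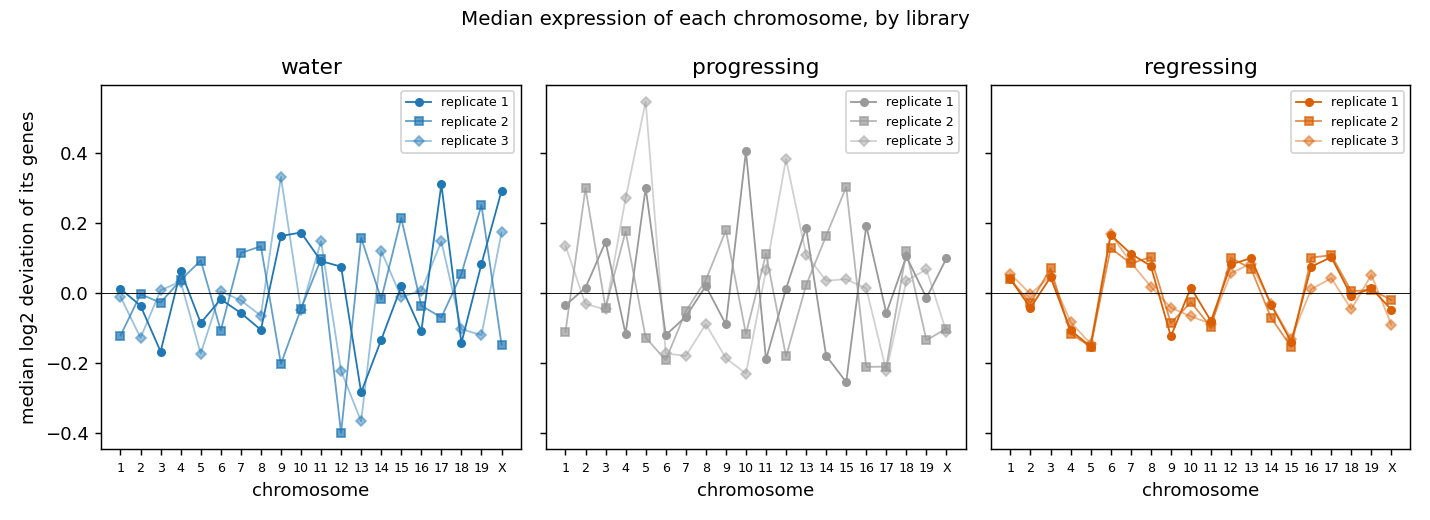
Median log2 level of the tested genes of each chromosome, relative to the mean of the 9 libraries and centred on all genes, with 1 point per library. Regressing points lie within 0.0902 of each other on every chromosome, while water points spread up to 0.534 and progressing points up to 0.676.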

How the data were processed

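Tissue mRNA of 9 W/W libraries was amplified with a SMARTer kit, per the labels' protocols, which also hold a cell culture passage that matches no tissue sample. The authors deposited raw counts and FPKM per gene for 52340 genes in one table. Its gene starts and ends match GENCODE vM21 (GRCm38) for 98.9% of genes. The submitters' processing notes name HISAT2 2.0.1, cutadapt 1.9.1 and FastQC 0.10.1, with no role. Which program counted reads, and how it handled strand and reads that fit several genes, is not given in the sources used here. The deposited FPKM values served only to check totals: those they imply exceeded the summed counts by 0.106% to 2.33%.

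Counts entered the quasi-likelihood test of edgeR 4.0.16, run in R 4.3.3 (filterByExpr, TMM, F test, 9 libraries in one fit, 3 groups, Benjamini-Hochberg over 18119 genes), with limma 3.58.1 and DESeq2 1.42.0 as alternatives. Standard errors are the fold change divided by the square root of F. A gene with at most 3 counts in every library of a group has a fold given as a bound, against the largest CPM that 3 counts make in a library of that group. Shares of segment counts have Wilson 95% intervals. Scripts were tested on simulated data. Of 679 list entries 678 were found in the table, 3 of them by gene ID.

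The genes named are Trp53, the 12 largest rises and 12 largest falls in mean CPM among called genes without overlap, and from each list its first 2 tested members and up to 3 called ones with the lowest p, of which a few are not reported here. Ccr9, Cd8b1, Tespa1, Cd24a, Foxn1, Plcg1, Rps18-ps5, Rps12-ps3, the receptor and immunoglobulin segments and the sex-linked genes were added after their values were seen. The members, lists and tests were chosen with earlier results of these data known. Alternatives were other scalings, filters, tools and fits, a replicate block, fat or B cell markers as a covariate, and leaving out each library. Leaving out regressing replicate 3 and water replicate 2 together was added after seeing the data. Libraries of other mice and of a cell line in the series were not used here.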

Additional observations from a re-analysis of the deposited data

Results flagged for a closer look

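The regressing libraries differed from the other libraries given arsenic trioxide. Between the regressing and the progressing libraries, 2289 of 18119 genes passed an adjusted p of 0.05 in edgeR's quasi-likelihood test, 1169 higher and 1120 lower in the regressing ones. This is the test of the difference between the effects of the 2 treated groups, since both were set against the same water libraries. The count was 177 without regressing replicate 1, 312 without regressing replicate 2, 549 without regressing replicate 3, 531 without progressing replicate 3, 1362 without progressing replicate 2 and 3825 without water replicate 2.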

How the results depend on the processing

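With 3 libraries a group, most calls need every regressing library, and depth limits the genes named at a few CPM. Counts of called genes between regressing and water libraries were within 1.5 times of 1396 under DESeq2 size factors, total counts, a filter of 1 CPM in 3 libraries, limma-voom, the compared groups only, and the replicate block. They were 2689 with no filter on low counts, 3354 with DESeq2's test, 315 with the fat marker covariate, 24 with the B cell marker covariate, 541 without regressing replicate 3 and water replicate 2 together, and 60 to 1612 when 1 library was left out. Between regressing and progressing libraries the count of 2289 became 3621 with no filter, 4121 with DESeq2's test, 933 with the fat and 276 with the B cell marker covariate, and 177 to 3825 when 1 library was left out. The causes of these shifts were not tested. Both covariates differ between the groups in their means, so the fits with them also remove part of the group difference itself.

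The replicate block gave 956 genes, of which 898 are among the 1396. Deviations of same-numbered libraries from their group means had correlations of -0.122 to 0.133. With 3 libraries a group this cannot show whether same-numbered libraries shared a batch, which the labels do not state. Of the 70 called genes named, 70 kept the call under DESeq2 size factors, 62 under total counts, 56 with limma-voom, 60 in the fit of the compared groups only, 53 with the replicate block, 21 with the fat and 6 with the B cell marker covariate. With the B cell marker covariate Ms4a1 turned from lower to a log2 fold change of 0.0739. Of the 71 named genes that did not pass, 38 changed sign in at least 1 of 13 settings, 81 times in all.

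The Trbv leading share, -75.2 percentage points in regressing against water libraries, ran from -80.9 to -72.3 when 1 library was left out. The kappa share, at -22.6, ran from -34.4 to -8.65 and the heavy-chain share, at -29.4, from -47.4 to -2.27.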
